A study of Homo sapiens with 6 samples.

Results

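The p53 target genes described here are 10 genes known to be activated by the transcription factor p53: MDM2, GDF15, RRM2B, TP53INP1, ZMAT3, FAS, TNFRSF10B, PPM1D, XPC and BTG2. They were picked by gene symbol from a deposited table of 60708 genes. All 10 were found there, and all 10 were among the 17401 genes with enough reads to be tested. The study asked what loss of the tumor suppressor VHL changes in the mRNA of Caki-1 cells, a human clear cell renal carcinoma line that carries wild-type VHL. Vector control cells (VC), of wild-type genotype, were infected with the lentiviral CRISPR vector alone. VHL-KO cells were infected with a lentiviral CRISPR/Cas9 vector carrying a guide RNA against VHL. The sources describe puromycin selection and clonal knockout lines, so the VHL-KO samples may all stem from 1 clone. Bulk RNA of 3 VC and 3 VHL-KO samples was sequenced, with 31789923, 28463579 and 34881739 counted reads in VC replicates 1 to 3 and 29139722, 22805385 and 22628246 in VHL-KO replicates 1 to 3. The labels do not say whether replicates came from separate cultures, so p-values measure only the spread between these samples, which may be technical.

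As background, p53 is a DNA-binding transcription factor that is held at a low level by the ubiquitin ligase MDM2 and its partner MDM4. When DNA damage or other stress frees it from MDM2, it binds short DNA elements in its target genes and raises their transcription, which can lead to cell cycle arrest, DNA repair or apoptosis. Some of its targets, MDM2 and PPM1D among them, act back on p53 and limit the response, and many are also regulated by other factors. The p53 protein of these cells was not analysed here.

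The DNA around the start of each gene was searched for the p53 consensus, which consists of 2 copies of a 10-base element with no spacer. It reads alike on both strands, and both were searched, in the 2.5 kb on each side of the start of the canonical transcript in GENCODE release 44. With at most 2 mismatches in 20 bases, 7 of the 10 genes held a match (70%), against 2347 of 19942 protein-coding genes (11.8%). RRM2B, with 1 mismatch, and TNFRSF10B, with 2, held theirs in intron 1. PPM1D (chr17:60600193-60666280, plus strand), XPC (chr3:14145147-14178621, minus strand) and TP53INP1 held none in this window, which says only that these letters are not there. The closest matches of the other 5 genes are shown because they are the DNA that a p53 target gene is known for. They are written 5′ to 3′ from GRCh38 with 5 flanking bases on each side, and capitals mark the bases that fit the consensus.
ZMAT3: tcataAAACAAGTCCAGACATGCCTaggca
MDM2: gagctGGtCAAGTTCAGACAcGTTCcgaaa
FAS: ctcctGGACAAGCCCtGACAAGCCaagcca
BTG2: gggtcAcGCATGTTCAGGCATGCaTggaat
GDF15: attgccAtCTTGCCCAGACTTGTCTcgaac
The match of ZMAT3 (chr3:179070188-179070207, minus strand) had 0 mismatches, as in 13 of all protein-coding genes (0.0652%), and lies in intron 1. The matches of MDM2 (chr12:68808923-68808942, plus strand) and FAS (chr10:88991309-88991328, plus strand) also lie in intron 1 of the canonical transcript, and that of FAS is inside exons of other FAS transcripts and of ACTA2 on the opposite strand. The match of BTG2 (chr1:203303642-203303661, plus strand) lies upstream, at -1868 bases from the start, in an exon of the divergent transcript BTG2-DT. That of GDF15 (chr19:18385308-18385327, plus strand) lies at -840 bases from the canonical start and within the span of longer GDF15 transcripts, outside their exons. Each match is a description of the sequence and not a sign of p53 binding in these cells.

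The label of the VHL-KO samples was checked first. VHL mRNA was at 42.6, 37.8 and 40.1 CPM (read counts relative to library size, scaled with TMM factors, as are all CPM values here) in VC replicates 1 to 3 and at 34.8, 30.4 and 30.5 in VHL-KO replicates 1 to 3. All VHL-KO samples were below all VC samples, with a log2 fold change of VHL of -0.33 (adjusted p = 0.0109 from edgeR). The call of VHL ended with offsets for GC content and transcript length (-0.05, adjusted p = 0.603), with upper quartile factors (adjusted p = 0.0905) and without VC replicate 1 (adjusted p = 0.0862) or VHL-KO replicate 2 (adjusted p = 0.0621), and 23.5% of its exonic bases lie opposite exons of the other strand. Small insertions or deletions need not lower a transcript, so this level does not check the knockout. Genes activated by the HIF transcription factors, which VHL normally holds down, do so more directly. Of 10 HIF targets, 9 rose and 1, EGLN3, fell, with a median log2 fold change of 1.60. Among all tested genes 28.5% rose and 31.2% fell. NDRG1 rose from 12.1, 11.1 and 11.7 CPM to 729, 774 and 781, and ADM rose from 5.83, 6.50 and 5.11 to 64.7, 72.8 and 66.2. CA9 had 0, 0 and 2 counts in VC cells against 288, 247 and 233 in VHL-KO cells.

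The cells carried most of the listed markers of kidney tubule cells. The 9 kidney tubule markers summed to 1710, 1930 and 1560 CPM in VC cells against 2390, 2310 and 2320 in VHL-KO cells. KRT8 was the most abundant, at 648, 766 and 597 CPM against 967, 943 and 944, while PAX2 was at 0 in all samples. Of the 8 tested, 4 rose, among them CDH16, PAX8 and KRT8, and 2 fell, among them LHX1, and 3 rose and 3 fell with library size alone or with offsets for GC content and transcript length, where KRT8 did not pass. Leukocyte markers summed to between 1.37 and 5.33 CPM, nearly all from CD14, and endothelial markers to between 0.168 and 0.711. Only CD14 and, at 0 to 14 counts per sample, PECAM1 could be tested among these, and both rose. Fibroblast markers, led by COL1A1, summed to 43.3, 47.3 and 37.2 CPM in VC cells against 29.8, 27.2 and 25.5 in VHL-KO cells, and the 2 tested, COL1A1 and PDGFRB, both fell. With the offsets COL1A1 was at -0.69 and CD14 at 0.86, and with library size alone PAX8 was at 0.33 and KRT8 at 0.32. The part of these markers in the results for p53 target genes was not tested.

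Of the 10 p53 target genes, ZMAT3, GDF15 and TP53INP1 rose in VHL-KO cells, and FAS, PPM1D and MDM2 fell. RRM2B, BTG2, XPC and TNFRSF10B did not pass the threshold, a p of 0.05 from the quasi-likelihood test of edgeR, Benjamini-Hochberg adjusted over all genes tested. The 3 rises are 30% of the members and the 3 falls also 30%, close to the 28.5% of all tested genes that rose and the 31.2% that fell. Those shares are over genes of every type, whereas the members all code for protein. Of tested protein-coding genes with a match to the p53 consensus, 26.9% rose and 38.2% fell, and of those without, 28.4% rose and 38.9% fell. In either direction 59.7% of all tested genes passed. Without overlap between VC and VHL-KO samples, 3 members lay higher and 3 lower, 6 of 10, as did 31.2% and 33.5% of all tested genes, together 64.7%. The median log2 fold change of the 10 genes was 0.16, against -0.01 for all tested genes, and it was 0.26 without VHL-KO replicate 1 and 0.08 without VHL-KO replicate 3. In bulk RNA, fewer cells with a transcript and less of it per cell cannot be told apart. Counts of these genes ranged from 164 to 10904 per sample, well above the level that 3 counts allow for an absent gene, 0.079 to 0.141 CPM.

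**Figure D1:**
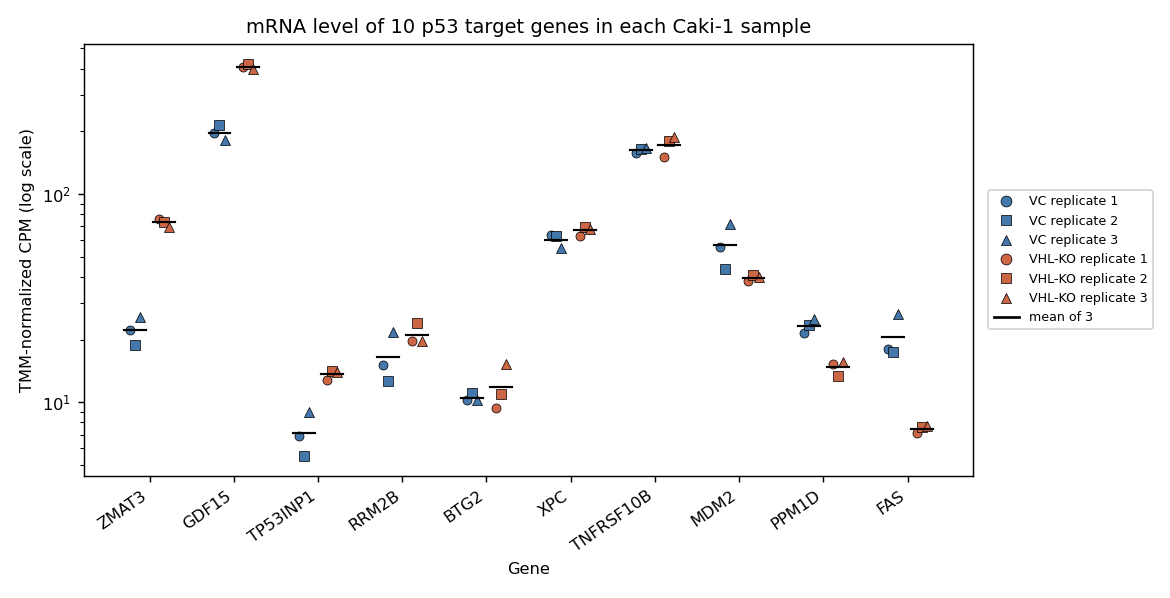
TMM-normalized CPM on a log axis of the 10 p53 target genes in each of the 3 VC and 3 VHL-KO samples, with 1 symbol per replicate and bars at the mean of 3. ZMAT3, GDF15 and TP53INP1 lie higher in all VHL-KO samples than in any VC sample, MDM2, PPM1D and FAS lie lower, and the groups overlap for the other 4.

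MDM2 and PPM1D, the 2 members named above as acting back on p53, both fell in VHL-KO cells with TMM factors. MDM2, the ubiquitin ligase that targets p53 for degradation, was at 55.4, 43.7 and 71.4 CPM in VC replicates 1 to 3 and 38.4, 40.7 and 39.8 in VHL-KO replicates 1 to 3. The VHL-KO samples lay close together, under the lowest VC sample, whereas the VC samples differed widely among themselves, with replicate 2 lowest and replicate 3 highest. MDM2 fell by 0.52 on the log2 scale (standard error 0.13, adjusted p = 0.00125, 3 of 3 VHL-KO samples below every VC sample). The fall did not pass with offsets for GC content and transcript length, which were not tried apart: the log2 fold change was then -0.0021 (adjusted p = 0.983, in a range of 7.39e-07 to 0.983 over 15 alternatives). Without VC replicate 3 the log2 fold change was -0.31 and still passed (adjusted p = 0.0139). Of the exonic bases of MDM2, 14.7% overlap exons of other genes.

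PPM1D, which encodes the phosphatase WIP1 that removes activating phosphates from p53 and from the kinases upstream of it, was at 21.4, 23.4 and 25.0 CPM in VC cells against 15.2, 13.3 and 15.6 in VHL-KO cells. Again all VHL-KO samples were below all VC samples, here with little spread within either group. It fell by 0.66 on the log2 scale (standard error 0.13, adjusted p = 8.37e-05), and by 0.34 with the offsets, where it passed (adjusted p = 0.00396, the highest of 15 alternatives). MDM4, the partner of MDM2 and not a member, fell by 0.49 (adjusted p = 0.00309), from 28.1, 19.9 and 27.5 CPM to 18.4, 18.5 and 16.8. Like that of MDM2, its fall did not pass with the offsets, at -0.10 (adjusted p = 0.421).

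ZMAT3 encodes a zinc finger protein that binds RNA and acts in splicing and mRNA stability. It was at 22.2, 18.9 and 25.8 CPM in VC cells against 75.7, 73.7 and 69.8 in VHL-KO cells. Every VHL-KO sample was far above every VC sample. ZMAT3 rose by 1.71 on the log2 scale, 3.27-fold (standard error 0.11, adjusted p = 5.33e-12), the largest rise of the 10.

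GDF15 encodes a secreted stress cytokine of the TGF-β family. Its mRNA was at 196, 215 and 181 CPM in VC cells against 408, 423 and 397 in VHL-KO cells, without overlap and with little spread within a group. It rose by 1.05, 2.07-fold (standard error 0.09, adjusted p = 3.5e-10), and by 0.35 with the GC and length offsets, where it still passed the threshold (adjusted p between 1.06e-29 and 5.21e-06 over 15 alternatives). GDF15 is also induced by the integrated stress response, through the factors ATF4 and CHOP. Of 7 genes of that response, 3 rose (42.9%), 2 fell (28.6%) and 2 did not pass, with a median of -0.04. Among all tested genes 28.5% rose and 31.2% fell. ATF4, ATF3 and ASNS are named after their values were seen. ATF4 mRNA did not pass, at -0.04 (adjusted p = 0.703), nor did ATF3, at -0.18 (adjusted p = 0.284). ASNS fell by 1.61, on 33, 13 and 42 counts in VC cells against 6, 8 and 5 in VHL-KO cells. DDIT3, which encodes CHOP, rose by 1.07, from 20.2, 20.1 and 16.6 CPM to 43.5, 41.9 and 33.8. PPP1R15A rose by 0.89, or by 0.56 with the offsets, and TRIB3 rose by 0.49, TRIB3 only at 0.08 and without passing when the offsets were used, whereas CHAC1 fell by 1.54.

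TP53INP1 encodes a nuclear protein that promotes p53 phosphorylation and takes part in autophagy. It was at 6.85, 5.52 and 8.93 CPM in VC cells against 12.8, 14.1 and 14.0 in VHL-KO cells. The highest VC sample stayed under the lowest VHL-KO sample. It rose by 0.94, 1.91-fold (standard error 0.17, adjusted p = 3.42e-05), and by 1.48 with the offsets.

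BTG2, an antiproliferative protein that recruits the CCR4-NOT deadenylase to mRNA, was at 10.2, 11.1 and 10.2 CPM in VC cells against 9.36, 11.0 and 15.3 in VHL-KO cells. The groups overlapped, and VHL-KO replicate 3 stood above the other 5 samples. The log2 fold change was 0.17 (adjusted p = 0.38), it was -0.05 without that replicate, and the threshold was passed under 0 of 15 alternatives. Of the 6 tested genes of the BTG and TOB family and its deadenylase partners, 1 rose and 3 fell, with a median of -0.32. BTG1, the close paralog of BTG2, rose by 1.41, from 21.8, 20.4 and 23.4 CPM to 55.6, 60.9 and 57.9, while the deadenylase CNOT7 fell by 1.02, TOB1 fell by 0.70 and BTG3 fell by 0.57. With the offsets CNOT7 was at -0.45 and TOB1 at -0.44, and both passed.

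The 2 death receptors among the members differed. FAS, the receptor of FAS ligand, was at 18.0, 17.4 and 26.4 CPM in VC cells against 7.08, 7.60 and 7.69 in VHL-KO cells. The VHL-KO samples were nearly equal and far under each VC sample, of which replicate 3 was the highest. FAS fell by 1.47 on the log2 scale and was 2.77-fold lower (standard error 0.16, adjusted p = 2.81e-08), and it fell by 0.87 with the offsets. Of the exonic bases of FAS, 7.04% overlap exons of other genes, most of them on the opposite strand. TNFRSF10B encodes DR5, a receptor of the death ligand TRAIL. It was at 157, 164 and 166 CPM in VC cells against 150, 179 and 187 in VHL-KO cells, with overlap, since VHL-KO replicate 1 was the lowest of all samples and the other two were the highest. Its log2 fold change was 0.08 (adjusted p = 0.451), -0.11 with library size alone and 0.27 with the offsets, where it passed (adjusted p = 0.00109, in a range of 0.000199 to 0.864 over 15 alternatives).

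Of the 9 tested partners of these death receptors, 3 rose (33.3%) and 4 fell (44.4%), with a median of -0.13. Among all tested genes 28.5% rose and 31.2% fell. TNFRSF10D, a TRAIL receptor without a functional death domain, was at 18.0, 19.2 and 18.7 CPM in VC cells against 49.4, 52.2 and 52.7 in VHL-KO cells, a rise of 1.47. CFLAR, which encodes the caspase-8 inhibitor FLIP, rose by 0.64, from 88.7, 80.0 and 86.6 CPM to 139, 130 and 130. The third gene that rose, TNFRSF10C, had only 1 to 14 counts per sample and is named after its values were seen. Its call ended without VC replicate 1, where only TNFRSF10D and CFLAR rose. Without VHL-KO replicate 1 it did not reach 10 reads and was not tested. CASP8, the initiator caspase of these receptors, fell by 0.82, from 31.5, 28.2 and 37.2 CPM to 19.7, 18.1 and 17.0, and by 0.46 with the offsets. TNFRSF10A, which encodes DR4, fell by 0.44, and BID, which links the receptors to mitochondria, fell by 0.28, although BID did not pass with upper quartile factors (-0.17) or without VC replicate 1 (-0.26) or VHL-KO replicate 3 (-0.19). FASLG, the gene of FAS ligand, had at most 1 count in a sample and was not tested.

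The members that act in DNA repair and nucleotide supply did not pass the threshold. XPC, which recognizes DNA damage for nucleotide excision repair, was at 63.7, 62.8 and 54.8 CPM in VC cells against 63.2, 69.3 and 68.2 in VHL-KO cells. The groups overlapped, with VC replicate 3 as the lowest sample. The log2 fold change was 0.15 (adjusted p = 0.202), -0.04 with library size alone, and it passed with upper quartile factors at 0.26 (adjusted p = 0.0331) and with the offsets at 0.27 (adjusted p = 0.00175), in a range of 0.000866 to 0.707 over 15 alternatives. Of the exonic bases of XPC, 24.6% overlap another gene on the opposite strand, where the counts can hold reads of either gene if the libraries were not stranded. Of 15 other genes of nucleotide excision repair, 5 rose (33.3%) and 7 fell (46.7%), with a median of -0.06. Among all tested genes 28.5% rose and 31.2% fell. XPA rose by 0.79, ERCC1 rose by 0.48 and DDB2, itself a p53 target, rose by 0.48, values that were 0.29 for ERCC1 and 0.29 for DDB2 with library size alone and 0.25 for DDB2 with the offsets. RAD23B, a partner of XPC, fell by 1.10, from a mean of 155 CPM in VC to 72.6 in VHL-KO cells, and ERCC8 fell by 0.99. With the offsets RAD23B was at -0.65 and ERCC8 at -0.46, and both passed. ERCC5 had 61, 59 and 78 counts in VC cells against 7, 43 and 14 in VHL-KO cells. The groups overlapped in CPM, at 1.79, 1.99 and 2.05 in VC cells against 0.262, 1.99 and 0.657 in VHL-KO cells. The log2 fold change of ERCC5 was -1.04 (adjusted p = 0.0329), and it was -2.12 without VHL-KO replicate 2. Its call ended without VHL-KO replicate 1 (-0.54, adjusted p = 0.209), without VHL-KO replicate 3 (-0.84, adjusted p = 0.12), with DESeq2 (-0.99, adjusted p = 0.0742) and with the offsets (-0.74, adjusted p = 0.133).

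RRM2B encodes the p53-inducible small subunit of ribonucleotide reductase, which makes deoxynucleotides outside S phase. It was at 15.1, 12.7 and 21.8 CPM in VC cells against 19.6, 24.0 and 19.7 in VHL-KO cells. VC replicate 3 lay among the VHL-KO samples, and the other VC samples lay below them all. The log2 fold change of RRM2B was 0.35 (adjusted p = 0.0631), or 0.15 with library size alone and 0.21 without VC replicate 2, and the threshold was passed under 7 of 15 alternatives, among them the fit without VC replicate 3, at 0.61 (adjusted p = 7.9e-05), and the offsets, at 0.96 (adjusted p = 4.75e-08), in a range of 8.3e-10 to 0.473. The 7 other genes in the list of deoxynucleotide supply all fell, beside 31.2% of all tested genes, with a median of -1.43. This list also holds SAMHD1, which encodes an enzyme that breaks deoxynucleotides down. RRM2, the S-phase counterpart of RRM2B, fell by 2.07, from 141, 137 and 159 CPM to 32.2, 33.6 and 38.1, DCK fell by 2.02 and TYMS fell by 2.00. Per length of transcript, RRM2B was 6.83%, 5.97% and 8.56% of the sum of RRM2B and RRM2 in VC cells against 29.4%, 32.7% and 26.0% in VHL-KO cells. RRM2 fell while RRM2B did not pass, so this higher share follows from the values above and is no separate result about RRM2B.

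Levels of different genes were compared as CPM per kb of canonical transcript. In both groups GDF15 had the highest level of the 10, at 165 ± 14.0 CPM per kb in VC and 341 ± 10.7 in VHL-KO cells (n = 3 per group, mean ± SD), followed by TNFRSF10B, at 40.6 ± 1.23 and 43.0 ± 4.82, and XPC, at 16.6 ± 1.34 and 18.3 ± 0.904. In VC cells the order went on with MDM2 (7.59), FAS (5.57), PPM1D (4.88), BTG2 (3.85), RRM2B (3.46), ZMAT3 (2.49) and TP53INP1 (1.27). The sample ranges of MDM2 and FAS, FAS and PPM1D, BTG2 and RRM2B, and RRM2B and ZMAT3 overlapped. So did those of PPM1D and RRM2B, which are not neighbours. Within single VC samples, though, MDM2 was above FAS and RRM2B above ZMAT3 in 3 of 3, whereas FAS and PPM1D, and BTG2 and RRM2B, changed places between samples. In VHL-KO cells ZMAT3 came next after XPC, at 8.18 CPM per kb, and FAS last, at 2.02, with MDM2 (5.29), RRM2B (4.41), BTG2 (4.35), PPM1D (3.08) and TP53INP1 (2.44) between them. Here RRM2B and BTG2 were the only neighbours whose ranges overlapped. The range of BTG2 (3.43 to 5.6) also held that of MDM2 (5.13 to 5.43), which is not its neighbour.

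Ratios of raw counts between a pair of genes in 1 sample need no scaling between samples. The pairs were picked after the values were seen, and a ratio of counts compares groups, not the levels of the 2 genes. ZMAT3 and FAS have nearly the same GC content (38.2% and 38.0%), and ZMAT3 had 1.23, 1.09 and 0.977 counts per FAS count in VC cells against 10.7, 9.70 and 9.08 in VHL-KO cells. TP53INP1 and MDM2 are also alike in GC content (39.3% and 39.5%), and their ratio was 0.124, 0.126 and 0.125 in VC cells against 0.333, 0.347 and 0.353 in VHL-KO cells. The first gene of both pairs rose and the second fell, so a higher ratio in VHL-KO cells followed from the choice of pairs. TNFRSF10D had 0.115, 0.117 and 0.113 counts per TNFRSF10B count in VC cells against 0.329, 0.292 and 0.282 in VHL-KO cells. TNFRSF10D rose and TNFRSF10B did not pass, so this higher ratio followed from the choice of the pair as well.

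**Figure D2:**
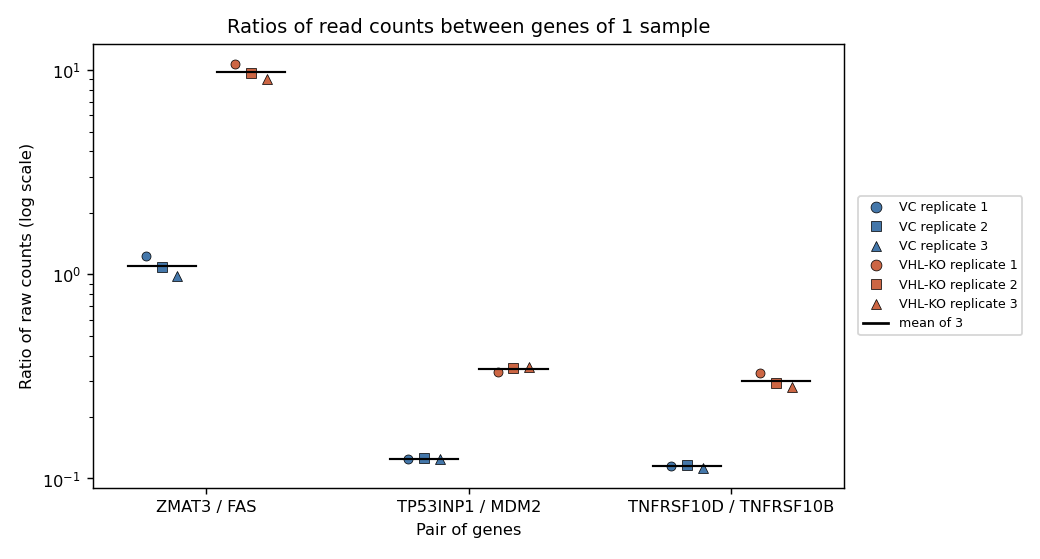
Ratios of raw counts between genes of the same sample on a log axis, for 3 pairs, with 1 symbol per VC or VHL-KO replicate and bars at the mean of 3. The groups lie apart for ZMAT3 over FAS, TP53INP1 over MDM2, and TNFRSF10D over TNFRSF10B, each higher in all VHL-KO samples. The pairs were picked after the values were seen, so these gaps followed from the choice.

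Base composition moved with the comparison. The median log2 fold change of all tested genes was -0.39 for transcripts with a GC content under 35%, -0.47 from 35% to 40% and 0.61 at 65% or more. Libraries of VC also differed from each other in this trend, with slopes of 0.224 for replicate 2 and -0.209 for replicate 3 (log2 per 10 percentage points of GC, each against the other VC replicates), against 0.361 between VHL-KO and VC. The slope of VC replicate 1 was -0.015. Those of VHL-KO replicates 1 to 3, each against the other VHL-KO replicates, were 0.00833, -0.0078 and -0.000524. The 5 members with a GC content under 40%, ZMAT3, FAS, TP53INP1, MDM2 and RRM2B, were each highest in replicate 3 and lowest in replicate 2 of VC, and GDF15, at 62.9% GC, had the opposite order. MDM2, at -0.52, lay near the median of its GC range, while ZMAT3, TP53INP1 and, at 0.35, RRM2B lay above it and FAS below. Offsets that remove each library's trend with GC content and transcript length brought the medians of all ranges to between -0.05 and 0.10. They also take out biological change that follows GC content, and which of both the trend reflects was not tested.

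**Figure D3:**
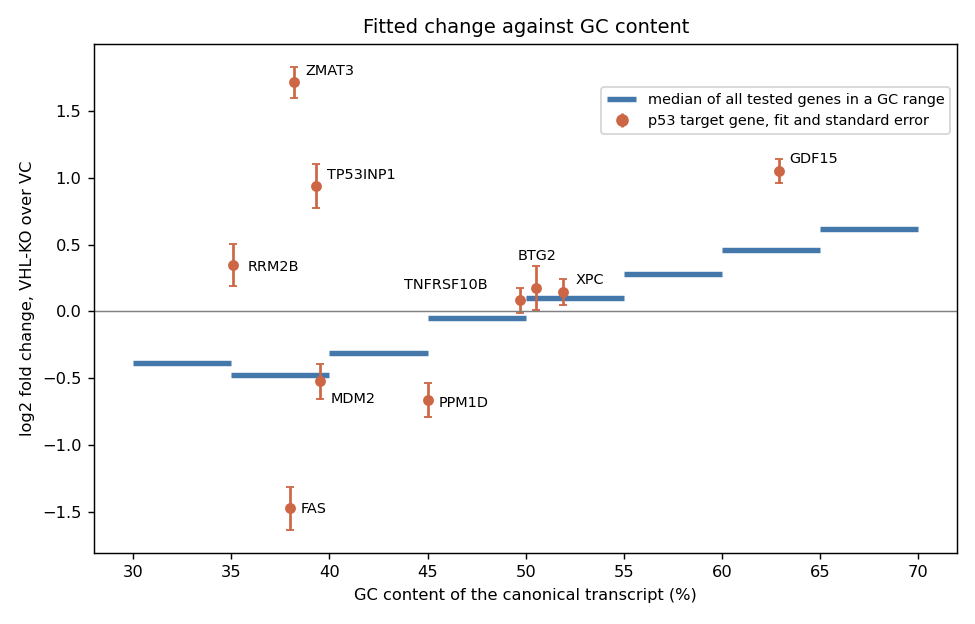
Log2 fold change, VHL-KO over VC, against the GC content of the canonical transcript for the 10 p53 target genes (points, with standard errors) and the median of all tested genes in each range of GC content (bars, of which the first and last also hold the genes beyond the drawn ends). The medians run from -0.47 to 0.61, with MDM2 near them, ZMAT3, TP53INP1 and RRM2B above and FAS below.

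The scaling shifted all members, and the offsets shifted them unequally. With library size alone the median of all tested genes was -0.20 and that of the 10 members -0.03, with upper quartile factors they were 0.10 and 0.27, and with the offsets -0.02 and 0.27. ZMAT3, GDF15, TP53INP1, FAS and PPM1D, 5 of the 6 members past the threshold, passed it in the same direction under all 15 alternatives. The number of members that rose was 3 with library size alone, 5 with upper quartile factors and 6 with the offsets, beside 21.6%, 32.8% and 28.3% of all tested genes. The number that fell was 3, 3 and 2, beside 38.7%, 26.8% and 31.9%. Some list medians near 0 changed sign. That of the death receptor partners was -0.32 with library size alone, -0.02 with upper quartile factors and 0.12 with the offsets, that of nucleotide excision repair -0.25, 0.05 and 0.03 in the same order, that of the integrated stress response -0.23, 0.07 and -0.27, and that of the kidney tubule markers -0.02, 0.29 and -0.04, against -0.13, -0.06, -0.04 and 0.17 with TMM factors. In either direction 60.3%, 59.7% and 60.2% of all tested genes passed.

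**Figure D4:**
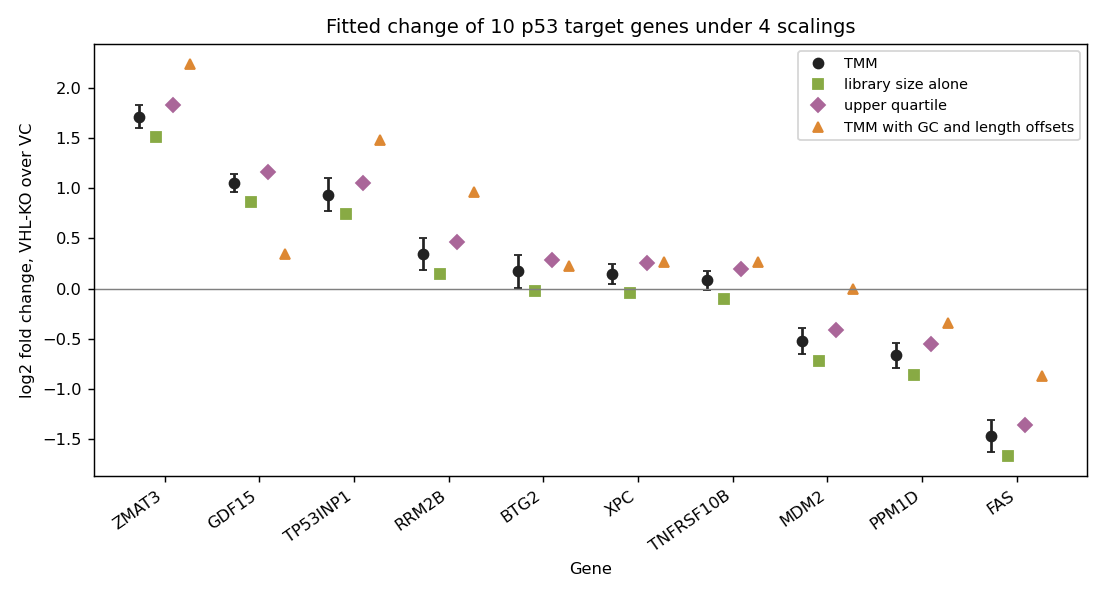
Log2 fold change, VHL-KO over VC, of the 10 p53 target genes under 4 scalings, with the standard error drawn for TMM factors. ZMAT3, GDF15 and TP53INP1 stay above 0 and PPM1D and FAS below 0 under all 4, MDM2 is at -0.0021 with the GC and length offsets, and BTG2, XPC and TNFRSF10B are below 0 with library size alone.

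Other genes of the p53 pathway were counted in the same way. Of 47 tested genes in a list of 48 other p53 targets, 22 rose (46.8%), 15 fell (31.9%) and 10 did not pass. Among all tested genes 28.5% rose and 31.2% fell. The median log2 fold change of these targets was 0.23, or 0.03 with library size alone and 0.12 with the offsets. CDKN1A, which encodes the cell cycle inhibitor p21, was at 218, 240 and 204 CPM in VC cells against 407, 386 and 376 in VHL-KO cells, a rise of 0.82 without overlap (adjusted p = 2.37e-08), which was 0.51 with the offsets. PHLDA3, an inhibitor of AKT, rose by 1.59, from 133, 150 and 122 CPM to 408, 407 and 401, the lysosomal fucosidase gene FUCA1 rose by 1.53 and TNFRSF10D is given above. In the other direction, SFN, which encodes 14-3-3 sigma, fell by 2.83 on low counts, 136, 145 and 114 in VC cells against 26, 3 and 10 in VHL-KO cells, and was at -3.49 with the offsets and at -3.67 without VHL-KO replicate 1. The gene of the proapoptotic protein NOXA, PMAIP1, fell by 2.43, from 10.9, 10.1 and 14.4 CPM to 2.17, 1.95 and 2.44, and the KIT ligand gene KITLG fell by 2.16, or by 1.54 with the offsets.

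Of 18 tested p53 regulators in a list of 21, 1 rose (5.56%) and 10 fell (55.6%), with a median of -0.51. Among all tested genes 28.5% rose and 31.2% fell. With library size alone 0 of these regulators rose and 15 fell, with a median of -0.71. With the offsets 2 of these regulators rose and 10 fell, with a median of -0.34. Among them, the DNA damage kinase gene PRKDC fell by 1.40, from 388, 422 and 451 CPM to 161, 147 and 169, CHEK1 fell by 1.39, or by 0.90 with the offsets, and NPM1 fell by 1.38. KAT5, the 1 that rose, was at 0.26 on the log2 scale (adjusted p = 0.032) and was at -0.08 with the offsets. It did not pass with library size alone (0.06, adjusted p = 0.577), with a filter of at least 1 count in any sample (0.22, adjusted p = 0.113), or when VC replicate 1 or 3 or VHL-KO replicate 1 or 2 was left out. TP63, TP73 and CDKN2A were at 0 counts in all samples. The 17 genes that p53 is known to repress through p21 and the DREAM complex, most of them cell cycle genes, all fell, with a median of -1.83. KIF23 fell by 2.80, CDK1 fell by 2.71 and CCNA2 fell by 2.60, from 42.6, 39.3 and 52.5 CPM to 7.49, 7.23 and 7.46. As background, these genes are also tied to cell division, which was not measured here.

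**Figure D5:**
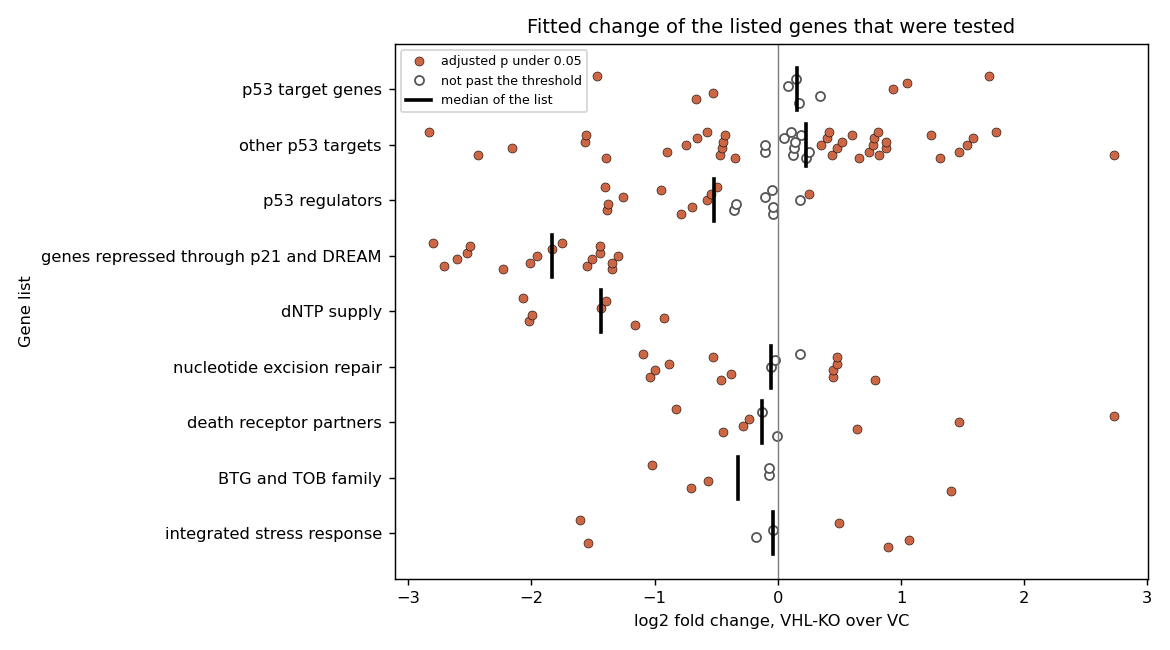
Log2 fold change, VHL-KO over VC, of the tested genes of 9 lists, with 1 point per gene, filled where the adjusted p was under 0.05, and bars at the median of each list. The 10 p53 target genes and the other p53 targets lie on both sides of 0 with medians of 0.16 and 0.23, while the genes repressed through p21 and DREAM and those of dNTP supply all lie below 0.

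Genes with and without a match to the p53 consensus moved in both directions. Of the 7 members with a match, 2 rose, 2 fell and 3 did not pass, and of the 3 without one, 1 rose, 1 fell and 1 did not pass. Among the other p53 targets, 20 of 48 held a match (41.7%), of which 9 rose and 9 fell. Of the tested genes without one, 13 rose and 6 fell. Of all tested protein-coding genes with a match, 26.9% rose and 38.2% fell, and of those without, 28.4% rose and 38.9% fell.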

How the data were processed

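RNA-seq values are the raw count of reads per gene deposited by the authors, made per the study's methods and processing notes by trimming with Trim Galore and cutadapt, alignment of reads of at least 20 nt to GRCh38.p13 with STAR, handling with SAMtools, and counting of uniquely mapped reads with HTSeq. Their versions, the annotation release and strandedness are not given in the sources used here. All 6 samples were grouped by their labels. Genes that reached 10 reads in any sample were fitted in edgeR 4.0.16 (R 4.3.3) with TMM factors and the two-sided quasi-likelihood F test, with Benjamini-Hochberg adjustment over 17401 genes and a threshold of 0.05. The fit was tested on simulated data. Chi-square per degree of freedom between replicates was 6.43 to 35.3, which no copied library would give. The floor of 3 counts, the 95% limit for a count of 0, covers counting error only. Transcript lengths, GC contents and positions came from GENCODE release 44, with 60463 of 60708 genes matched, and sequences from GRCh38. Plots were made in Python 3.11.15 with matplotlib 3.10.9.

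The alternatives were the Wald test of DESeq2 1.42.0, scaling by library size alone, by upper quartile factors or by relative log expression, at least 1 count in any sample, at least 10 reads in every sample, offsets for GC content and length (natural splines, 5 degrees of freedom), the replicate number as a block, the block with the offsets, and each sample left out in turn. The members and the lists (p53 regulators, other p53 targets, genes repressed through p21 and DREAM, death receptor partners, nucleotide excision repair, dNTP supply, BTG and TOB family, integrated stress response, HIF targets and markers of 4 cell types) were chosen with earlier results of these data known, and the lists were written from general knowledge. TNFRSF10A, TNFRSF10C, TNFRSF10D and DDB2 are each in 2 lists. Named genes are the 10 members, VHL, MDM4, CDKN1A, 1 gene not reported here, and in each other list the 3 largest rises and 3 largest falls past the threshold with a mean of at least 1 CPM.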

Additional observations from a re-analysis of the deposited data

How the results depend on the processing

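Of 882 values of 59 named genes under 15 alternatives, 838 kept direction and side of the threshold, 12 newly passed it, 25 no longer passed and 7 changed sign, and 47 genes kept both under every alternative. The number of members that rose was 5 with upper quartile factors, 6 with the GC and length offsets and 6 with the replicate block and offsets together, against 3, beside 32.8%, 28.3% and 4893 of 17401 genes called higher among all tested, against 28.5%. With library size alone the median of the members was -0.031, TNFRSF10B was at -0.11, XPC at -0.044 and BTG2 at -0.018, where the median of all genes shifts to -0.20. KAT5 was at -0.083 with the offsets and at -0.084 with block and offsets, where MDM2 was at 0.0022. With 1 sample left out BTG2 was between -0.046, without VHL-KO replicate 3, and 0.329. These causes were not tested. With 1 sample left out, 3 to 4 members rose and 3 to 3 fell, their median was 0.08 to 0.26, and 9228 to 10377 genes passed. With the replicate number as a block, 4 members rose, RRM2B among them, 3 fell and 10284 genes passed. Deviations of equally numbered VC and VHL-KO samples had correlations of 0.151, -0.0897 and 0.055 across 12115 genes. Those of unequally numbered samples lay between -0.181 and 0.0661. With 3 samples a group, such correlations cannot decide whether equal numbers mark pairs, and the labels do not say.

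Some list counts moved by over 1.5 times. Of p53 regulators, 1 rose, and 0 to 2 did under other settings. Of death receptor partners, 4 fell, and 2 with upper quartile factors or without VC replicate 1. In the BTG and TOB family 3 fell, and 5 with library size alone, while 1 rose, and 2 with the offsets. In the integrated stress response 2 fell, 4 with library size alone or the offsets, and 1 when every sample had to reach 10 reads or without VC replicate 1 or 3. Each member had at least 164 counts in every sample, but 3 samples a group limit every error, and small differences can be missed.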
